A study of Mus musculus with 16 samples.

Results

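Transcripts of the ERK5 pathway were followed in the colon of mouse pups born by C-section delivery (CSD) or by vaginal delivery (VD). The 10 genes described here are Mapk7, which encodes ERK5, its upstream kinases Map2k5, Map3k2 and Map3k3, the transcription factors Mef2a, Mef2b, Mef2c and Mef2d, and the transcription factors Klf2 and Klf4. They were taken by gene name from the 36711 genes tested, and all 10 were measured and passed the filter on dim probes, with 22 probes of the 56366 retained. Total RNA of the colon at weaning was hybridised to 1-colour Agilent arrays, 1 array for each of 16 pups. CSD pups (n = 8, 4 females and 4 males) were removed by hysterectomy from pregnant RjOrl:SWISS mice and given to foster mothers that had just delivered vaginally. VD pups (n = 8, 2 females and 6 males) were born vaginally, and their litters were exchanged between mothers, so that pups of both groups were raised by a female other than their own mother. RjOrl:SWISS mice are an outbred stock. The labels give the biological mother of each pup. Mothers 3 and 4 had 4 CSD pups each, mother 5 had 5 VD pups and mother 6 had 3, all males. Each mother gave pups to 1 group only, so that delivery mode and litter cannot be told apart pup by pup, and only 2 litters per group stand behind each comparison. The arrays lay on 2 slides with 4 CSD and 4 VD arrays each. Of the spots that were not controls, 61.6% to 64.5% were well above background in CSD arrays and 58.7% to 64.9% in VD arrays, and 0 were saturated. VD pup 11 had the lowest share, and CSD pups 7 and 8 had the most spots marked as outliers by the scanner software (205 and 200). The samples were colon tissue. The epithelial markers Epcam, Vil1, Krt8, Cdh1 and Cdx2 were well above background on all 16 arrays, as were the smooth muscle markers.

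ERK5 is a mitogen-activated protein kinase with a long tail that can itself activate transcription. In the classical cascade the kinases MEKK2 (Map3k2) and MEKK3 (Map3k3) activate MEK5 (Map2k5), and MEK5 activates ERK5. ERK5 phosphorylates transcription factors of the MEF2 family, which bind AT-rich sites in DNA, and in endothelial cells this route is known to raise the expression of Klf2 and Klf4. In the intestine Klf4 is best known from differentiated epithelial cells and goblet cells, Klf2 from endothelial cells and resting lymphocytes, and Mef2c from B cells, endothelial cells, muscle and neurons.

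Of the 10 genes, 1 differed between CSD and VD pups. It was Mef2c, which was lower in CSD pups, by -0.29 on the log2 scale (standard error 0.07, adjusted p = 0.0449). A gene is called differentially expressed where the p of limma lay under 0.05 after Benjamini-Hochberg adjustment over all genes, in a model of delivery mode and sex with a random effect for each mother. By this measure 1.25% of all genes were called (460 of 36711). Log2 fold changes are of CSD over VD and adjusted for sex, and levels are normalised log2 intensities. At an unadjusted p under 0.05 there were 2 genes, Mef2c and Map3k2, where 14.5% of all genes passed. The fold change was above 0 in 5 of the 10 genes and below 0 in the other 5. Their median was -0.00085, and that of all genes was 0.0029. The 2 litter means of CSD were both above or both below those of VD in 4 genes (Map3k2, Map3k3, Mef2c and Klf2), which was seen in 42.0% of all genes. The 8 CSD values lay apart from the 8 VD values in 1 gene, again Mef2c, against 0.493% of all genes. The call of Mef2c depended on the processing and on single pups. It stayed lower in CSD pups under all 39 alternatives, but was called under 12 of them, with adjusted p between 0.0192 and 0.524.

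**Figure D1:**
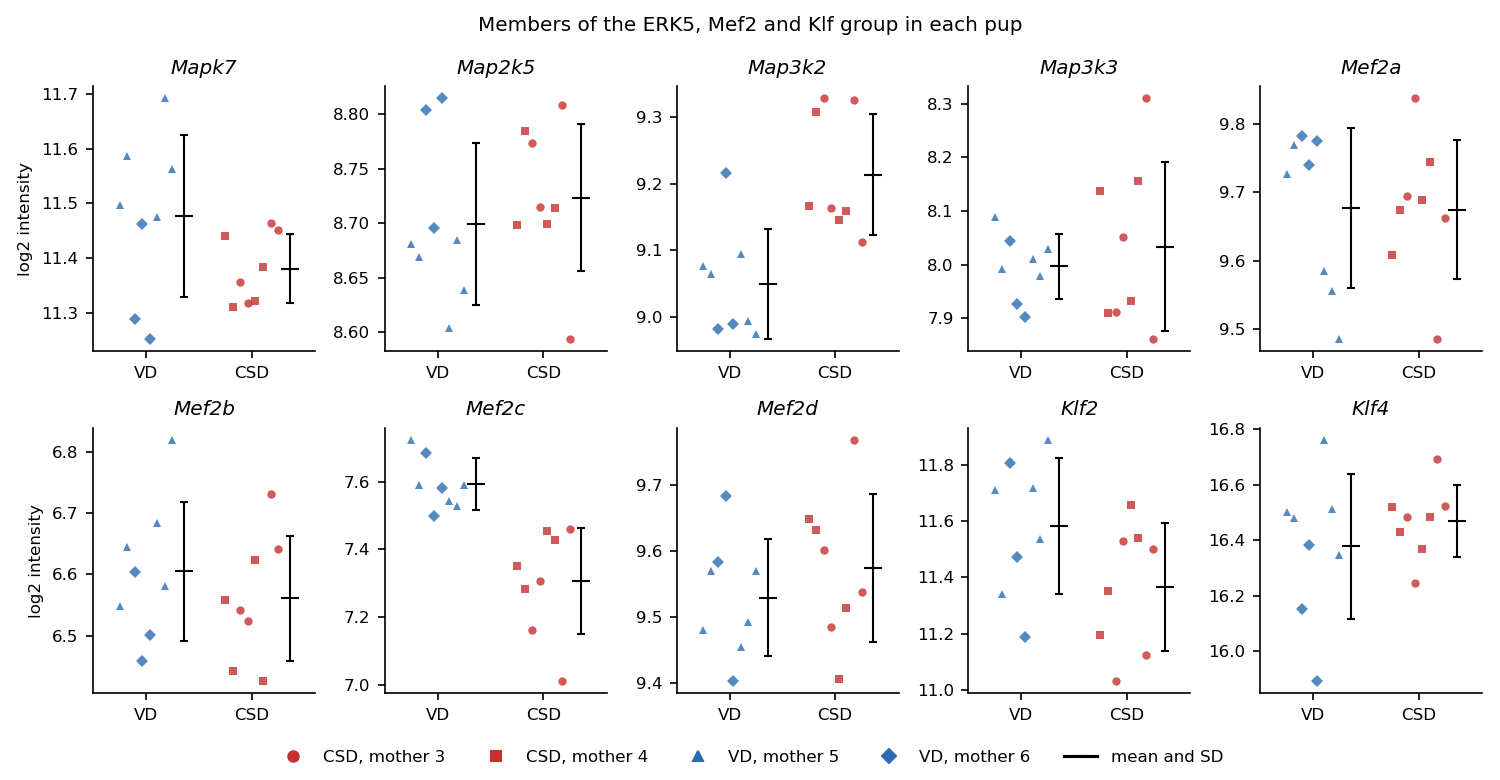
Normalised log2 intensity (y axes) of the 10 genes in each pup, 1 panel per gene with its own scale. Points are pups, shapes are litters, and the bars give the mean and SD of the 8 pups of a group. The CSD and VD pups overlap in every panel except that of Mef2c.

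**Figure D2:**
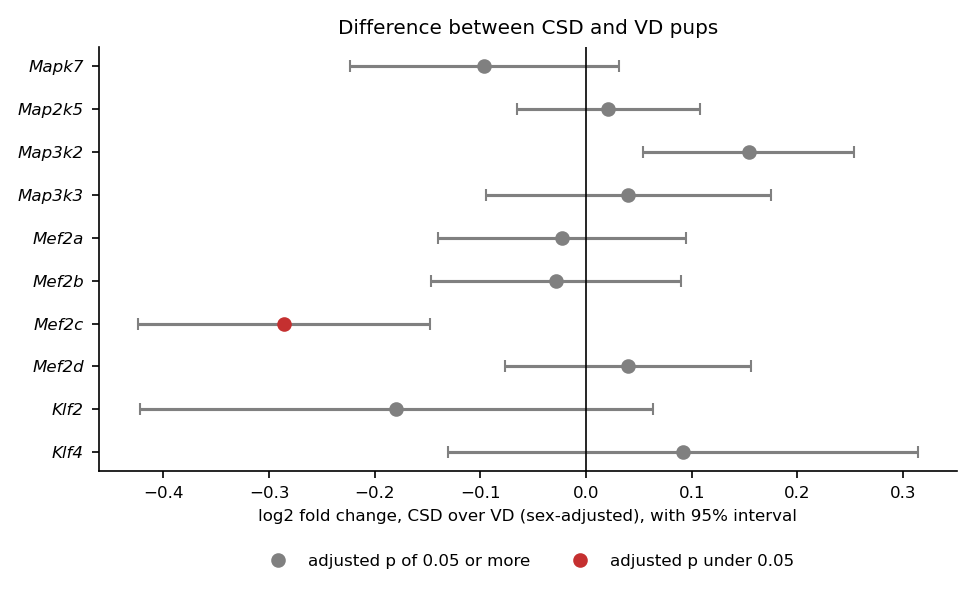
Log2 fold change of CSD over VD with sex in the model (x axis) for each of the 10 genes (y axis), with 95% intervals that are not adjusted for the number of genes. The intervals of Mef2c and Map3k2 exclude 0, and Mef2c alone has an adjusted p under 0.05.

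Among the kinases none was called. Mapk7 itself ranged from 11.31 to 11.46 in CSD pups (median 11.37) and from 11.25 to 11.69 in VD pups (median 11.49). All 8 CSD values lay within the range of the VD values. Group means came to 11.38 ± 0.06 (SD, n = 8) and 11.48 ± 0.15 (SD, n = 8), with a log2 fold change of -0.10 (95% interval -0.22 to 0.03, adjusted p = 0.501). The spread in VD pups went with the litter, since the mean was 11.56 in pups of mother 5 and 11.33 in those of mother 6, while the CSD litters had 11.40 and 11.36. Without the litter of mother 6, Mapk7 was lower in CSD pups, at -0.18 (adjusted p = 0.0180), and without the litter of mother 5 its fold change was 0.07 (adjusted p = 0.662), so that both its size and its sign moved with the VD litter used. Without the litter of mother 6, the VD pups were those of mother 5 alone. In that setting 2265 of 36708 genes were called, against 460 in the main fit, so that the call was not particular to Mapk7.

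Map3k2, one of the kinases at the top of the cascade, had the largest difference among the kinases. It ranged from 9.11 to 9.33 in CSD pups (median 9.16) and from 8.97 to 9.22 in VD pups (median 9.03). In CSD, 3 pups lay above all VD pups, and VD pup 7 was the one VD pup inside the CSD range. The log2 fold change was 0.15 (standard error 0.05, unadjusted p = 0.00484, adjusted p = 0.124), and an exact two-sided permutation of the group labels, which takes no account of litters, gave p = 0.00311. Both of its probes had a positive fold change (0.18 and 0.13). Map3k2 was called without VD pup 7 (0.18, adjusted p = 0.0451) and without the litter of mother 6 (0.17, adjusted p = 0.0285), and under no other alternative. More genes of the array were called in both settings (617 and 2265) than in the main fit (460). The other two kinases lay closer to 0. Map3k3 had a log2 fold change of 0.04 (95% interval -0.09 to 0.17, adjusted p = 0.831), and 1 probe each way (0.11 and -0.03). Its values in CSD pups were more spread (SD 0.16, n = 8) than in VD pups (SD 0.06, n = 8). Map2k5, which encodes the direct activator of ERK5, had a fold change of 0.02 (95% interval -0.07 to 0.11, adjusted p = 0.865) over 4 probes, of which none was called.

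Of the Mef2 factors, Mef2c was lower in CSD pups. Its level was 7.01 in the lowest CSD pup (pup 8), 7.33 at the median and 7.46 in the highest, against 7.50, 7.59 and 7.72 in VD pups. All 8 CSD pups lay below all 8 VD pups, although the highest CSD and the lowest VD value were close, and the spread was wider in CSD (SD 0.16, n = 8) than in VD (SD 0.08, n = 8). The level in CSD pups was 0.820 times that in VD pups (95% interval of the log2 fold change -0.42 to -0.15). This size depended on the processing. It was -0.44 on the log2 scale with a normexp offset of 0, -0.58 and -0.56 with scanner-corrected intensities (quantile and 75th percentile) and -0.42 in the deposited matrix, none of them called (adjusted p = 0.124, 0.171, 0.156 and 0.117). An exact permutation of the group labels (two-sided) had p = 0.000155, the smallest that it can give for 8 against 8 pups. It exchanges single pups and takes no account of litters. Any gene whose 8 and 8 values lie apart gets this p, so that it restates the separation. Litter means were 7.23 (mother 3) and 7.38 (mother 4) in CSD and 7.60 (mother 5) and 7.59 (mother 6) in VD. The fold change was -0.31 on slide 1 and -0.26 on slide 2, with neither called alone. With the litters as samples it was -0.29, with an unadjusted p of 0.00870 and an adjusted p of 0.306, a setting in which 0 genes of the array were called by limma and 4034 had an unadjusted p under 0.05. Leaving out 1 pup kept the call without CSD pups 6 or 9 or VD pups 7 or 9, and ended it without any of the other 12, CSD pups 1, 2, 3, 5, 7 and 8 and VD pups 4, 5, 6, 8, 10 and 11, with adjusted p from 0.0507 (without VD pup 8) to 0.139 (without VD pup 4). Without CSD pups 7 and 8 and VD pup 11 together, the arrays that stood apart in spot quality and were chosen after the data had been seen, it was -0.24 (adjusted p = 0.134).

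The 4 probes of Mef2c lie along the gene on chromosome 13 and did not all show the difference. Of the 56366 probes, 1.74% were called when each was tested alone, a test that was added after the data had been seen, and 3 of the 4 Mef2c probes were among them. The sequence of 1 of these is shown because it had the smallest p and because it joins exons: its 60 bases span 2238 bases of the genome (mm9, chr13:83772788-83775025, plus strand), so that it matches spliced RNA of Mef2c.
A_55_P2155620: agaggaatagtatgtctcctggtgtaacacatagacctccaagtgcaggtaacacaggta
This probe lay between 6.35 and 6.73 in CSD pups and between 6.78 and 7.07 in VD pups, with no overlap (log2 fold change -0.32, standard error 0.05, adjusted p = 0.00837). It was well above background on 7 of 8 CSD arrays and on 8 of 8 VD arrays. The brightest probe, A_65_P01126, lay between 9.11 and 9.79 in CSD and between 9.79 and 10.12 in VD pups, again with no overlap (-0.41, adjusted p = 0.0385). A_55_P2730921, designed on the Ensembl transcript ENSMUST00000196832, had 7 of 8 CSD pups below all VD pups (-0.40, adjusted p = 0.0311). The remaining probe, A_65_P11889, is on the same Ensembl transcript and was well above background on 1 CSD and 1 VD array only, and its fold change was -0.02 (adjusted p = 0.925). This dim probe is averaged into the level of the gene. When probes had to be well above background on at least 8 arrays, the fold change of Mef2c was -0.37 (adjusted p = 0.0279).

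**Figure D3:**
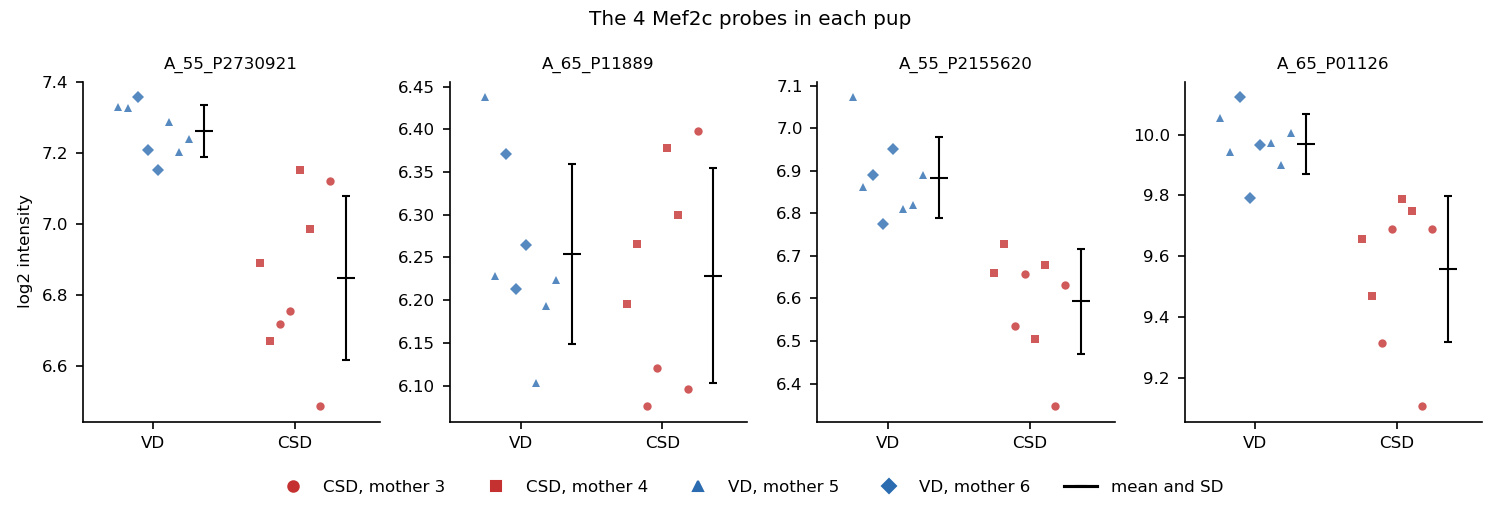
Normalised log2 intensity (y axes) of the 4 Mef2c probes in each pup, ordered by position along the gene, 1 panel per probe with its own scale. Points are pups, shapes are litters, and the bars give mean and SD (n = 8). CSD and VD pups lie apart in A_55_P2155620 and A_65_P01126, overlap in 1 CSD pup in A_55_P2730921, and are mixed in A_65_P11889.

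The other members of the family were not called. Mef2d, which like Mef2a is expressed in many tissues, had a log2 fold change of 0.04 (95% interval -0.08 to 0.16, adjusted p = 0.802), and all 3 of its probes were above 0. Mef2b, a family member known from germinal centre B cells, had -0.03 (95% interval -0.15 to 0.09, adjusted p = 0.866). One of its 2 probes was well above background on 1 CSD array and 0 VD arrays, and the other had a fold change of -0.13 (adjusted p = 0.371). The mean level of Mef2a was 9.67 ± 0.10 (SD, n = 8) for CSD and 9.68 ± 0.12 (SD, n = 8) for VD, with a fold change of -0.02 (95% interval -0.14 to 0.09, adjusted p = 0.896). This average hid probes of opposite sign. A_52_P311841 had 4 CSD pups below all VD pups and a fold change of -0.16 (unadjusted p = 0.00235, adjusted p = 0.0797), and A_55_P2733817 had 0.12 (adjusted p = 0.561), so that the level of Mef2a cannot be given a direction from these arrays.

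Klf2 was spread widely in both groups. It ranged from 11.03 to 11.66 in CSD pups (median 11.43) and from 11.19 to 11.89 in VD pups (median 11.62), and 2 CSD pups lay below all VD pups. The log2 fold change was -0.18 (standard error 0.11, 95% interval -0.42 to 0.06, adjusted p = 0.513), and the exact two-sided permutation test gave p = 0.0872. It was below 0 under all 39 alternatives and called in 0 of them. Klf4 ranged from 16.25 to 16.69 in CSD (median 16.48) and from 15.89 to 16.76 in VD pups (median 16.43), so that all CSD values lay inside the VD range. Its fold change was 0.09 (95% interval -0.13 to 0.31, adjusted p = 0.756), with 0.38 without the litter of mother 5 (adjusted p = 0.177) and -0.04 without that of mother 6. Klf2 and Klf4, like Mapk7, each rest on 1 probe.

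The promoters of these genes (RefSeq, build GRCm38.p6, 250 bases before to 50 after the start) were searched for the letters CTANNNNTAG, a form of the site that MEF2 proteins bind and its own reverse complement. Promoters were found for 9 of the 10 genes, 12 in all. The letters occurred in 3.69% of the 32851 promoters and in 2 of these 12, those of Klf2 and Mef2a. The stretches are shown because they hold the one match to a MEF2 site in a Klf promoter of the group and the one in the promoter of a Mef2 gene, with the match in capitals.
Klf2, chr8:72318884-72319013, plus strand: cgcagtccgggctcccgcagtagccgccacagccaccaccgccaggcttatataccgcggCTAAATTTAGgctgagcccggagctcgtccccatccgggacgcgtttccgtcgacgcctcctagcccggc
Mef2a, chr7:67372841-67372870, minus strand: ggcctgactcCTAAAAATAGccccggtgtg
In Klf2 the match lies from 118 to 109 bases before the start, and in Mef2a it crosses the start. In the 3 promoters of Mef2c and in that of Klf4 these letters were not found in the window. CCACCC, the letters of a site for KLF proteins, searched on both strands, was in 31.5% of all promoters and in 7 of these 12, which belong to Mapk7 (2), Mef2b, Mef2c (2 of its 3), Mef2d and Klf2. The 2 Mapk7 promoters overlap almost fully, so that the same sequence is counted in both. By gene, 5 of the 9 held these letters. A match describes the sequence and was not tested for binding.

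Litters of the same delivery mode were also compared, and more genes of the array were called between the VD litters than between the CSD litters. Between mothers 6 and 5 (VD), 0 of the 10 genes were called in limma, and 0.874% of all genes were called. At an unadjusted p under 0.05 there were 5 of the 10 and 11.5% of all genes. Mapk7 had a log2 difference, mother 6 over mother 5, of -0.25 (adjusted p = 0.101) and Klf4 had -0.41 (adjusted p = 0.142), whereas Map2k5, Mef2a and Mef2b had 0.13, 0.19 and -0.17 (unadjusted p = 0.0242, 0.0168 and 0.0228). Mef2c had -0.01. The litter of mother 6 held males only, and sex was in the model. Between mothers 4 and 3 (CSD), 0 of the 10 were called in limma, 0 had an unadjusted p under 0.05 (7.69% of all genes did), and 0.0872% of all genes were called, with Mef2c at 0.15 (unadjusted p = 0.107). Whether the sexes differed was tested in the same way. Between males and females none of the 10 was called in limma, with 0 at an unadjusted p under 0.05 (6.45% of all genes), and 0.0599% of all genes were called. In the interaction of delivery mode and sex 0 of the 10 were called in limma, 0 had an unadjusted p under 0.05 (4.72% of all genes did), and 0.00272% of all genes were called. Mef2c was at 7.28 ± 0.08 (SD, n = 4) in CSD females, 7.34 ± 0.22 (SD, n = 4) in CSD males, 7.66 ± 0.09 (SD, n = 2) in VD females and 7.57 ± 0.07 (SD, n = 6) in VD males. Among males alone its fold change was -0.23 (adjusted p = 0.469).

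The neighbours of the 10 genes in the pathway, in lists of 18, 6, 12, 12 and 14 genes, held 4 called genes. These and the later lists were chosen with earlier results of these data known. Their counts therefore describe the lists and cannot serve as a test of an excess. The shares to set beside these and all later lists are those of all genes, 1.25% called and 14.5% at an unadjusted p under 0.05. Upstream of the kinases (growth factors, receptors, adaptors and Ras proteins), 0 of 18 genes were called in limma and 3 had an unadjusted p under 0.05, with a median log2 fold change of 0.02. The smallest p belonged to Nras, a Ras protein (0.14, adjusted p = 0.0638, 5 CSD pups above all VD pups), and to Lif, a cytokine known to activate ERK5 in some cells (0.20, adjusted p = 0.125, 6 CSD pups above all VD pups). Of 6 partners of ERK5, 3 were above 0 and 3 below (median 0.02), 3 had an unadjusted p under 0.05, and Hsp90aa1 rose, while Nr4a1 and Stub1, a ubiquitin ligase, had -0.97 and -0.14 without being called. Hsp90aa1 encodes a chaperone of many kinases and lay between 10.82 and 11.40 in CSD and between 10.56 and 10.92 in VD pups, with a fold change of 0.44 (standard error 0.08, adjusted p = 0.0147). All CSD pups but pup 8 lay above the VD range. The fold change was 0.82 with its brightest probe, 0.67 with probes well above background on at least 8 arrays and 0.67 in the deposited matrix (adjusted p = 0.0105, 0.0233 and 0.0402), and it was not called with a normexp offset of 0 (0.44, adjusted p = 0.0922) or with scanner-corrected intensities (0.42 and 0.48, adjusted p = 0.221 and 0.168). Of 12 genes downstream of ERK5, 6 were above 0 and 6 below, 4 had an unadjusted p under 0.05, and Myc rose, a driver of proliferation, with 8.46 to 8.68 in CSD and 8.10 to 8.34 in VD pups and no overlap (0.33, standard error 0.04, adjusted p = 0.00254). The median of these 12 was -0.0020. Among the others Fos, an immediate early transcription factor, had the largest difference, at -0.84 (adjusted p = 0.264, 4 CSD pups below all VD pups), and Creb1 had 0.12 (adjusted p = 0.0943). Both calls held without each single pup. Over all 39 alternatives Hsp90aa1 was called under 29 and Myc under 33, and among the litters Hsp90aa1 was not called without that of mother 4 or 5 (adjusted p = 0.120 and 0.140) and Myc without that of mother 5 (adjusted p = 0.0587).

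Among 12 co-regulators of Mef2 proteins, 5 were above 0 and 7 below (median -0.01), 1 had an unadjusted p under 0.05, and Hdac5 fell, a class IIa histone deacetylase that binds MEF2 and represses its targets. It lay between 13.44 and 13.66 in CSD and between 13.63 and 13.85 in VD pups, and 6 CSD pups lay below all VD pups (-0.20, standard error 0.04, adjusted p = 0.0362). Without CSD pups 1, 3, 6, 8 or 9 or VD pups 4, 5, 10 or 11 it was not called, with adjusted p from 0.0526 (without VD pup 11) to 0.109 (without VD pup 4), and it was called under 15 of the 39 alternatives. The related deacetylases Hdac7, Hdac9 and Hdac4 had -0.15, -0.08 and 0.06 (adjusted p = 0.378, 0.522 and 0.496). Among 14 other Klf genes, 8 were above 0 and 6 below (median 0.02), 5 had an unadjusted p under 0.05, and Klf7 fell, a factor known best from neurons. It lay between 9.43 and 9.71 in CSD and between 9.71 and 9.84 in VD pups, with all 8 CSD pups below all VD pups (-0.21, standard error 0.04, adjusted p = 0.0232). The highest CSD pup and the lowest VD pup were separated by less than 0.01, and the call ended without CSD pup 7 (adjusted p = 0.0574) or VD pup 4 (adjusted p = 0.0664), with 26 of 39 alternatives calling it. Klf6, abundant in many epithelia, had 0.21 (adjusted p = 0.214), Klf5, of the proliferating crypt, 0.04 (adjusted p = 0.890), and Klf15 0.45 (adjusted p = 0.405).

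**Figure D4:**
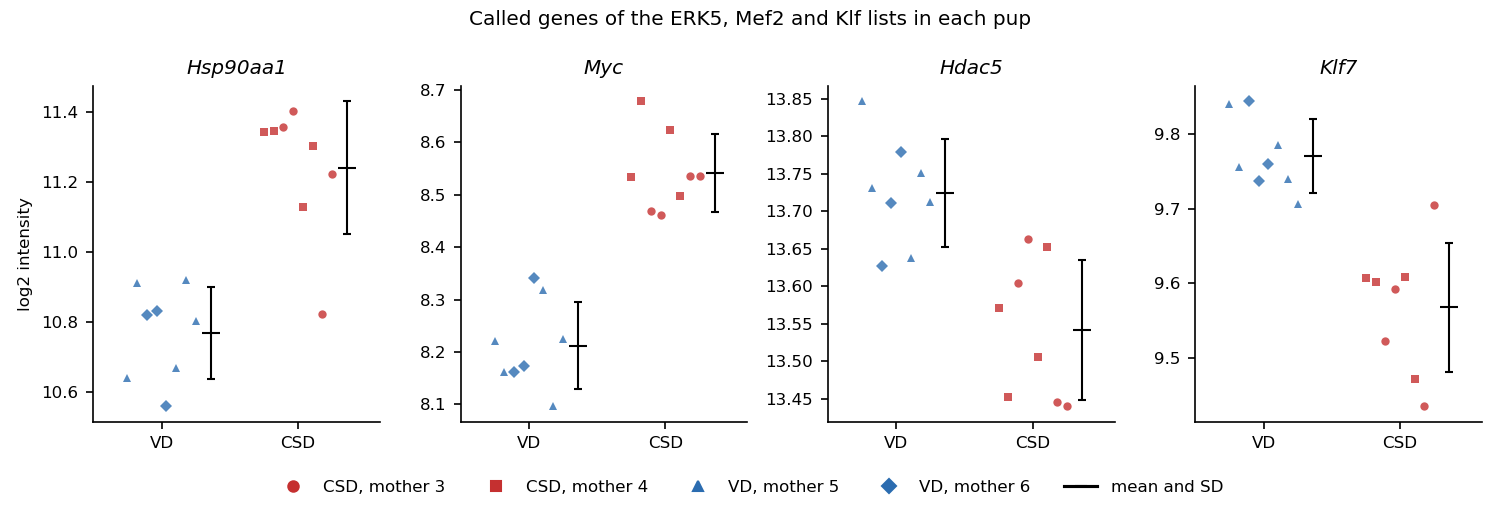
Normalised log2 intensity (y axes) of the 4 called genes of the ERK5, Mef2 and Klf lists in each pup, 1 panel per gene with its own scale, with mean and SD (n = 8). Hsp90aa1 and Myc were higher in CSD pups, and Hdac5 and Klf7 were lower. The pups of the 2 groups do not overlap in Myc and Klf7.

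Of 11 known targets of Mef2 and Klf factors 0 were called in limma, where 1.25% of all genes were. At an unadjusted p under 0.05 there were 4, where 14.5% of all genes passed. The fold change was below 0 in 9, and the median was -0.07. Nr4a1, an orphan nuclear receptor that MEF2 controls in T cells, lay between 10.47 and 11.27 in CSD and between 10.84 and 13.16 in VD pups, and 5 CSD pups lay below all VD pups (-0.97, standard error 0.28, adjusted p = 0.0995). Nos3, the endothelial nitric oxide synthase and a target of Klf2, had -0.26 (adjusted p = 0.152). Thbd and S1pr1, also known targets of Klf2, had -0.02 and -0.05 (adjusted p = 0.964 and 0.917), and Cdkn1a, a target of Klf4, had 0.03 (adjusted p = 0.857).

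The parallel MAP kinase cascades were compared with the ERK5 kinases. Of 18 other MAP kinases and MAP2 kinases, 0 were called in limma and 5 had an unadjusted p under 0.05 (median -0.0019). The smallest p belonged to Map2k4, which activates JNK and p38 kinases (0.23, adjusted p = 0.0961), and to Mapk12, a p38 kinase (-0.17, adjusted p = 0.111). Mapk3, which encodes ERK1, had -0.15 (adjusted p = 0.178). Of 14 other MAP3 kinases, 0 were called in limma and 5 had an unadjusted p under 0.05 (median -0.03), with the smallest p for Map3k6 (0.32, adjusted p = 0.120) and Map3k13 (-0.14, adjusted p = 0.127). The list also holds Map3k14, the NF-kappa-B-inducing kinase, at -0.16 (adjusted p = 0.129).

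Among cell types known to express Mef2c, markers of B cells, endothelium and muscle mostly had fold changes below 0. Those of enteric neurons and glia were mostly above 0. Of all genes, 51.7% had a fold change above 0. T cell, macrophage and other markers are given beside them. In RNA from tissue that holds several cell types, fewer cells of a type and less RNA per cell cannot be told apart. All 7 B cell markers had a fold change below 0 (median -0.35), with 0 called in limma and 3 at an unadjusted p under 0.05. Cd79a, part of the B cell receptor complex, had -0.48 (adjusted p = 0.0993). Blk, a kinase of B cells, was well above background on 0 CSD arrays and 5 VD arrays. The summed intensity of the 7 markers was 1774 to 9320 in CSD pups (median 3076) and 3277 to 7958 in VD pups (median 5294), led by Cd79b. The highest CSD value was that of pup 7, and the next was 5582, so that the groups overlapped with or without it. All 7 T cell markers were also below 0 (median -0.35), with 0 called in limma and 2 at an unadjusted p under 0.05, and a summed intensity of 1509 to 2854 in CSD and 2059 to 5512 in VD pups, led by Cd3d. The highest VD value was that of pup 6, and the next was 3457. Their smallest p belonged to Cd4 (-0.10, adjusted p = 0.282) and Ccr7 (-0.65, adjusted p = 0.341).

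All 9 endothelial markers lay below 0 as well (median -0.10), with 0 called in limma and 3 at an unadjusted p under 0.05. Their summed intensity was 2935 to 3719 in CSD and 3410 to 3949 in VD pups, led by Emcn (-0.16, adjusted p = 0.280), and Tie1 had -0.15 (adjusted p = 0.200). Of 6 macrophage markers 4 were below 0 and 2 above (median -0.09, 0 called in limma, 2 at an unadjusted p under 0.05), with a summed intensity of 9318 to 15495 in CSD and 13190 to 17350 in VD pups, led by Lyz2 (-0.37, adjusted p = 0.220), and Cd68 had -0.26 (adjusted p = 0.180). Smooth muscle markers had 7 of 8 below 0 (median -0.13, 0 called, 1 at an unadjusted p under 0.05, summed intensity led by Tagln), with Smtn at -0.19 and Acta2 at -0.17 (adjusted p = 0.275 and 0.419). Skeletal muscle markers had 5 of 6 below 0 (median -0.08, 0 called, 1 at an unadjusted p under 0.05), with Acta1 at -0.23 and Actn3 at -0.10 (adjusted p = 0.253 and 0.509). The remaining types held 0 called genes in limma. Markers of enteric neurons and glia had 6 of 8 above 0 (median 0.03, 0 at an unadjusted p under 0.05), with Sox10 at -0.16 and Nos1 at 0.10 (adjusted p = 0.381 and 0.421). Of 5 fibroblast markers 4 were below 0 (median -0.07, 0 at an unadjusted p under 0.05), with Dcn at -0.18 and Pdgfra at -0.08 (adjusted p = 0.363 and 0.608). Of 3 markers of interstitial cells of Cajal 2 were above 0 (median 0.04, 0 at an unadjusted p under 0.05), with Etv1 at 0.08 and Ano1 at 0.04 (adjusted p = 0.758 and 0.787).

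Most epithelial markers had fold changes above 0. All 5 goblet cell markers were above 0 (median 0.20, 0 called in limma, 3 at an unadjusted p under 0.05), with Spdef, the goblet cell transcription factor, at 0.29 (adjusted p = 0.0526) and Fcgbp at 0.59 (adjusted p = 0.0722). All 5 markers of differentiated colonocytes (median 0.19, 1 at an unadjusted p under 0.05) and 4 of 5 general epithelial markers (median 0.17, 1 at an unadjusted p under 0.05) were above 0 with 0 called. Their smallest p belonged to Slc26a3 (0.45, adjusted p = 0.113) and Ceacam1 (0.19, adjusted p = 0.374) in colonocytes and to Epcam (0.17, adjusted p = 0.257) and Cdx2 (0.33, adjusted p = 0.437) in the epithelium. Of 6 housekeeping genes 4 were below 0 (median -0.02, 0 called in limma, 2 at an unadjusted p under 0.05), with Gapdh at -0.16 (adjusted p = 0.167) and Actb at -0.12 (adjusted p = 0.345).

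Mef2c also varied with these markers within the groups. After the means of delivery mode and sex had been removed, its correlation over the 16 pups was 0.72 with the mean of the B cell markers, 0.71 with T cells, 0.69 with macrophages, 0.62 with endothelium, 0.57 with enteric neurons and glia, 0.02 with smooth muscle and -0.48 with goblet cells. These are descriptions over pups that share litters and slides. Klf2 had 0.74 with the B cell markers and 0.64 with the T cell markers, and Map3k2 had -0.59 and -0.56, and -0.68 with macrophages. The 5 genes with the pattern most like that of Mef2c, by the same correlation and among 20547 genes well above background on all arrays, were Irf4 (0.91), the immunoglobulin heavy chain segment of the Ensembl transcript ENSMUST00000103538 (0.90), Tap2 (0.90), Gm1987 (0.89) and Ikzf1 (0.89). Irf4 and Ikzf1 encode transcription factors of lymphocytes, and Tap2 is part of the peptide transporter of antigen presentation. None of the 5 was called between CSD and VD pups, Irf4 having -0.37 (adjusted p = 0.0809). The part of cell composition in the difference of Mef2c was not tested. Among the 10 genes themselves the correlations largest in size were those of Mapk7 and Klf4 (0.73), Map3k2 and Mef2c (-0.71), Mapk7 and Mef2a (-0.66), Mef2a and Mef2b (-0.65) and Mef2c and Klf2 (0.64).

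**Figure D5:**
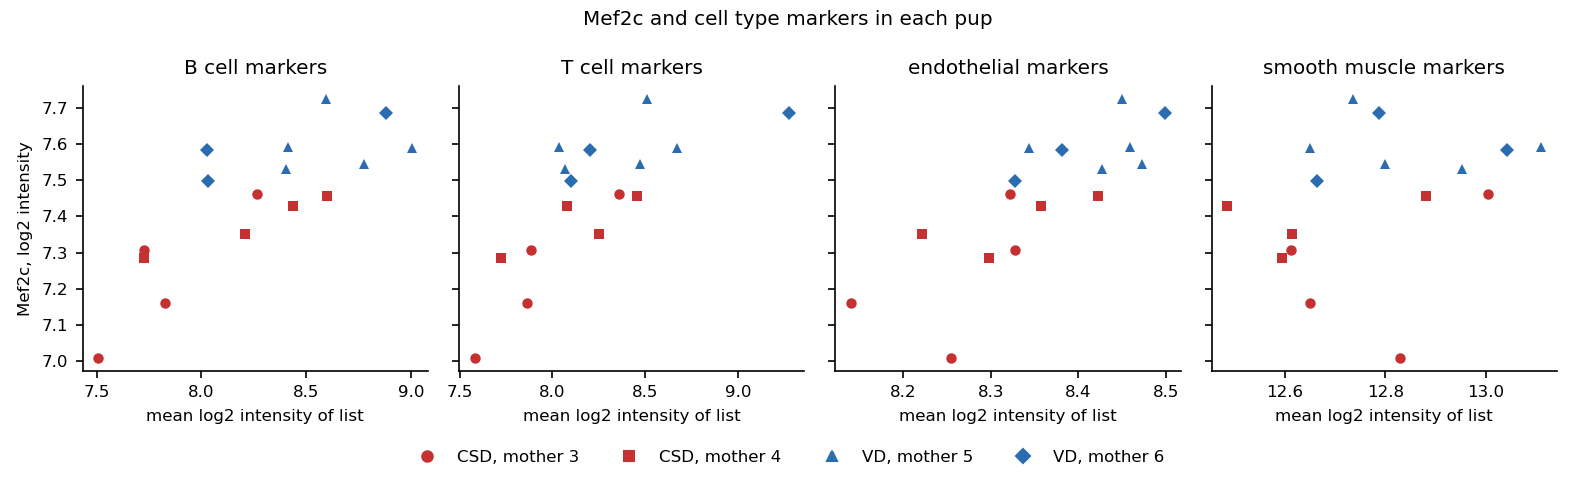
Log2 intensity of Mef2c (y axis) against the mean log2 intensity of the markers of a cell type (x axes) in each of the 16 pups, with colours for delivery mode and shapes for litters. CSD pups with low B and T cell markers, such as pup 8, are also lowest in Mef2c, and no such relation is seen with smooth muscle markers.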

How the data were processed

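Colon RNA of 16 pups was measured on 1-colour Agilent arrays, 1 array per pup. The deposited scanner files give the mean and background intensity of 62976 spots per array, as the authors' feature extraction wrote them. The authors' gene matrix, deposited as log2 values of 27036 genes, was used as an alternative only. The submitters' processing notes name limma 3.38. Here intensities were background corrected (normexp, offset 50), set to log2, freed of control and outlier spots and quantile normalised with limma 3.58.1 in R 4.3.3. Probes above the 5% quantile of each array on at least 4 arrays were kept (56366 of 56605) and averaged by gene name. limma was fitted over 36711 genes, with fixed terms for delivery mode and for sex and mothers as a random block (correlation 0.0152), and p was adjusted by Benjamini-Hochberg at 5%. The functions were tested on simulated data with no mother effect, in which the correlation within litters was estimated too low and more than 5% of calls were false, so that adjusted p may be too small. Exact two-sided permutation tests took every assignment of pups to groups, with no account of litter or sex. Named beside the 10 members were the called genes of each list or, where a list had none, the 2 with the smallest p, and the 5 genes most alike to Mef2c, and further genes of the lists were chosen after their values were seen. The members and all lists were chosen with earlier results of these data known. Nr4a1, Hdac9, Jun, Map3k8 and Ckm each stand in 2 lists (Ckm among the Mef2 and Klf targets and the skeletal muscle markers). Klf14 was not on the array. Promoters are from RefSeq (GRCm38.p6) and probe positions (mm9) from the scanner files. Pups of a litter share a mother, and the number of arrays limits the precision. The alternatives changed the background correction, normalisation, filters, probe summary, model, slides, litters and single pups.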

Additional observations from a re-analysis of the deposited data

Results flagged for a closer look

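In 104 groups of 8 pups, 4 held a pup set apart from the rest of its group by a gap that, over the range of the group, passed Dixon's 95% critical value, where chance sets apart about 1 in 20 groups. Actb was highest in CSD pup 8 at 18.39, with the next pup at 18.13. Etv1, a marker of interstitial cells of Cajal, was highest in CSD pup 7 at 8.27, with the next at 7.77. Mapk12 was lowest in CSD pup 1 at 6.91, with the next at 7.07, and Sox10, a marker of glia, was lowest in CSD pup 3 at 7.74, with the next at 8.07. No pup was set apart in this way in any of the 10 genes or in the Mef2c probes.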

How the results depend on the processing

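In the 39 alternatives Mef2c, Map3k2 and Klf2 kept their direction. The genes called, 460 of all genes and 1 of the 10, varied with the processing. With a normexp offset of 0 or 16 there were 102 and 243, with scanner-corrected intensities 177 (quantile) and 164 (75th percentile, which moved the median of all genes to 0.04), and in the deposited matrix 170, with 0 of the 10 in each, although the fold change of Mef2c was larger there (-0.44, -0.37, -0.58, -0.56 and -0.42) than the -0.29 reported. Without the mother effect 587 were called and without sex 992, with 1 of the 10 in each. With litter means as samples, males only, slide 2 only and the replicate block 0 genes were called by limma (4034, 3295, 3788 and 3571 at an unadjusted p under 0.05), on slide 1 there were 11, and 0 of the 10 in each. With trend and robust eBayes 316 were called and without CSD pups 7 and 8 and VD pup 11, chosen after seeing the data, 106, with 0 of the 10. Without the litter of mother 3, 4 or 5 there were 212, 138 and 192, with 0 of the 10, and without that of mother 6 there were 2265, with 3 (Mapk7, Map3k2 and Mef2c). Leaving out 1 pup gave 145 (without VD pup 4) to 617 (without VD pup 7), and 0 to 2 of the 10. The cause was not tested.

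Signs turned only in genes whose adjusted p was 0.501 or above. Mef2b had 0.0319 and 0.0793 with scanner-corrected intensities (quantile and 75th percentile), 0.0214 without mother 4 and 0.0844 without mother 5. With the brightest probe Map2k5, Map3k3 and Mef2a had -0.0370, -0.0329 and 0.12, with the probes A_55_P1953231, A_51_P100573 and A_55_P2733817 alone -0.0358, -0.0334 and 0.12, and with A_52_P9878 alone Mef2b had 0.0708. In males Map2k5 had -0.00329. On slide 2 Map2k5, Map3k3, Mef2a and Mef2d had -0.0434, -0.10, 0.00718 and -0.00200. Without CSD pups 7 and 8 and VD pup 11 Map2k5 and Map3k3 had -0.00707 and -0.0577. Without mother 5 Mapk7 and Map2k5 had 0.0707 and -0.0679, and without mother 6 Mef2a and Klf4 had 0.0391 and -0.0438. Leaving out 1 pup gave -0.0149 to 0.0772 in Map3k3, -0.0447 to 0.00755 in Mef2a and -0.00131 to 0.0717 in Mef2d, each with its turned sign without CSD pup 8, and -0.0564 to 0.00414 in Mef2b, with its turned sign without CSD pup 7.

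The replicate numbers 5 to 9 occur in both groups. Correlations of the deviations of same-numbered pups were 0.115, 0.215, 0.017, -0.049 and 0.061, and only 5 and 6 correlated best with their own number. Same-numbered pups were not treated as pairs in the main model, and these values cannot tell whether they share more than a number. With the replicate block Mef2c had -0.25 (adjusted p = 0.400), and Map2k5 and Mef2b had -0.0116 and 0.0108. Intensities near background limit Mef2b and 1 Mef2c probe.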
